A study of Mus musculus with 7 samples.

Results

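Antisense genes are transcribed from the strand opposite to a protein-coding gene, and the 129 of them described here reached a mean of 10 CPM or more in control mouse testes. CPM stands for the reads of a gene on a common, scaled library size. The members were chosen by 3 criteria in the deposited table of testis RNA. Their annotated type was antisense or antisense RNA, their mean over the 3 fl/Y libraries was 10 CPM or more, and they did not start between 60 and 70 Mb of chromosome 13. They are 129 of 898 antisense genes listed (14.4%), among 19719 genes of all types. Of the others, 768 were under 10 CPM and 1, 4930525G20Rik, was left out for its place on chromosome 13. Because the level in fl/Y chose them, that level is a description and is not tested, and it also enters the difference between genotypes.

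Total testis RNA was sequenced from 8-week-old males of the C57BL/6 strain. The 3 controls (labelled WT) were fl/Y littermates, which carry the floxed Rlim allele on their X chromosome. The 4 cKO/Y Sox2-Cre males (labelled Rlim-KO, and called cKO/Y here) lacked Rlim systemically, by the Cre recombinase that the Sox2 promoter drives in the early embryo, so that all cell types of the testis are affected and not the germ cells alone. Whether the fl/Y males carried the Cre transgene is not stated in the sources used here. Rlim encodes an X-linked ubiquitin ligase, and the study asked which RNAs of the testis differ without it. The labels give 2 batches, each with both genotypes. Batch 2 held fl/Y 1 and 2 and cKO/Y 1 and 2, and batch 1 held fl/Y 3 and cKO/Y 3 and 4.

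An antisense RNA can be noncoding, or it can be a gene in its own right that happens to lie across another. Some act on the locus they come from, as at imprinted domains, where 1 parental copy of a gene cluster is kept silent, and others start at the promoter of the coding gene and run away from it. The adult testis is known for transcribing a larger part of the genome than most organs, antisense and other noncoding RNAs included, mostly in meiotic and post-meiotic germ cells.

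Between 2822168 and 8633399 reads per library fell in listed genes. An absent read leaves room for up to 3, which equal 0.301 to 0.945 CPM depending on the library (counting error only). All 129 members were above 3 reads in every library and entered the test. Rlim was at 99.5, 70.7 and 61.5 CPM in the fl/Y libraries and at 32.6, 35.7, 21.7 and 20.7 CPM in the cKO/Y libraries, a log2 difference of -1.38 (SE 0.16, adjusted p = 0.0087 in limma), with every cKO/Y library below every fl/Y library. It no longer passed 0.05 without the batch term, nor without fl/Y 1 or fl/Y 3. Germ cell markers fixed as a list were all listed. Those of elongating spermatids (Prm1, Prm2, Tnp1, Tnp2, Odf1, Akap4) summed to 8561 to 11050 CPM in fl/Y and 8023 to 12651 CPM in cKO/Y. Sertoli cell markers summed to 355 to 602 and 363 to 663 CPM, Leydig cell markers to 438 to 536 and 422 to 711 CPM, and none of the 5 epididymis markers was listed. Such sums rest on their highest genes and hide others. The Leydig marker Insl3, named after its values were seen, was at 1.12, 6.26 and 51.5 CPM in fl/Y. In cKO/Y it was at 5.89, 3.79, 119 and 61.1 CPM, higher in batch 1 in both genotypes. At an unadjusted p under 0.05 in limma, 1 of 8 Sertoli and 1 of 6 Leydig markers were lower in cKO/Y and 0 higher. In RNA of a whole organ, fewer cells of a type and less RNA per cell cannot be told apart.

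The start regions of 3 members are shown because each lies close to the start of a coding gene, back to back on opposite strands with no overlap of the gene bodies. Another such pair, 4921504A21Rik and Magi2, has its starts 481 bases apart, and in 3 pairs whose gene bodies overlap the starts are as near, 54 bases for 2810402E24Rik and Usp54, 74 for 1600020E01Rik and Pcbp1 and 110 for Gm42918 and Trafd1. Med9os lies 64 bases from the start of Med9, which encodes a subunit of the Mediator complex. Arl4aos lies 74 bases from the start of Arl4a, a small GTPase, and Saxo1os 118 bases from that of Saxo1, a microtubule-binding protein. The bases between both starts are printed below for each pair, on the strand of the antisense gene, from RefSeq promoter windows (GRCm38.p6), with each CG in capitals. They are chr11:59948143-59948205 on the minus strand, chr12:40038026-40038098 on the plus strand and chr4:86558329-86558445 on the plus strand. The 63 bases between Med9os and Med9 hold 7 CG, the 73 between Arl4aos and Arl4a hold 11, and the 117 between Saxo1os and Saxo1 hold 0.
Med9os: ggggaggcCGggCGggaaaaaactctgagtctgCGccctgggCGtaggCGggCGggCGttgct
Arl4aos: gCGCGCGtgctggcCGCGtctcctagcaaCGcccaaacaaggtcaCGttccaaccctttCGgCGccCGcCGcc
Saxo1os: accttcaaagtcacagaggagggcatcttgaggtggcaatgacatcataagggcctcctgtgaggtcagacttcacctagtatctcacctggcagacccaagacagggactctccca

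Kcnq1ot1 is shown because it is the best-known member, the noncoding RNA of the imprinted Kcnq1 domain, which starts within Kcnq1 on the opposite strand and is known to silence neighbouring genes on the chromosome it comes from. Its RefSeq window (GRCm38.p6, chr7:143296498-143296797, minus strand), from 250 bases before to 50 after its start, holds the letters CCAAT 3 times, printed in capitals.
Kcnq1ot1: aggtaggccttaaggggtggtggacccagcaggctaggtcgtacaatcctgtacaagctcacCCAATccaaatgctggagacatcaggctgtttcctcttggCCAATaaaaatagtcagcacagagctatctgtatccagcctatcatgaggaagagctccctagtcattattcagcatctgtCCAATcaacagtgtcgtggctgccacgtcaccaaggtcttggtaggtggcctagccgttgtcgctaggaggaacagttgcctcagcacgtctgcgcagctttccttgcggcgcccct
CCAAT on either strand is in 37.4% of all 32851 RefSeq windows of this length. Among the members, 77 had a window by symbol, and in 52 of them its start lay within 50 bases of the deposited 5′ end. Of these 52, 17 held CCAAT (32.7%), and 7 held TATAAA (13.5%, against 13.6% of all windows). The cyclic AMP response letters TGACGTCA were in 3 of the 52 (5.77%, against 1.79% of all windows), namely Gm15756, Sox5os3 and 4933417D19Rik, named after their values were seen. The median number of CG was 5 in these windows and 7 in all.

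Mean levels of the members in fl/Y ranged from 10.03 to 5971 CPM with a median of 19.2 CPM, and the median in cKO/Y was 18.6 CPM. In fl/Y, 62 members were at 20 CPM or more, 16 at 50 or more and 8 at 100 or more. Just inside the threshold were 4933424L21Rik (10.03 CPM) and Itpr3os (10.2 CPM), and just outside it 1110002L01Rik (9.89 CPM) and Gm2366 (9.88 CPM). By comparison, 8699 protein-coding genes (58.2%) were at 10 CPM or more in fl/Y. No member lies on the X chromosome, where 4 antisense and 587 coding genes were listed, 220 of the latter at 10 CPM or more. By name, 52 members carry RIKEN clone symbols, 46 a Gm number and 18 the name of a coding gene followed by os, for opposite strand. Exons of the members in GENCODE M21 added up to 447 to 93092 bases (median 1476), in a median of 3 blocks, against a median of 5858 bases for the coding genes opposite them.

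Gm15564 (ENSMUSG00000086324, GRCm38 chr16:35966752-35983230, minus strand) had the highest mean and stood apart from all the other members by its spread. It was at 583, 870 and 16460 CPM in fl/Y 1 to 3 and at 1672, 158, 12719 and 9.13 CPM in cKO/Y 1 to 4. Its highest and lowest libraries differ by 1802-fold, and the groups overlap, with the 2 highest values in batch 1 together with the lowest. Next in spread among the members was 4930458D05Rik at 5.64-fold, and the median over members was 1.69-fold, with 122 of 129 at 3-fold or under. Lars2, a coding gene on another chromosome that encodes mitochondrial leucyl-tRNA synthetase, was at 25635, 9520 and 58381 CPM in fl/Y and at 57432, 2676, 41266 and 46.9 CPM in cKO/Y, a 1245-fold range, and was also lowest in cKO/Y 4. Over the 7 libraries the log2 levels of Gm15564 and Lars2 had a Pearson r of 0.91 (Spearman rho 0.93), a description of values from the same libraries. CT010467.1, annotated as ribosomal RNA, was at 50963, 6169 and 19095 CPM in fl/Y and at 235208, 15022, 15330 and 103 CPM in cKO/Y, and it too was lowest in cKO/Y 4. Its log2 level had a Pearson r of 0.66 with that of Gm15564 (rho 0.54), and that of mt-Rnr2, the large mitochondrial ribosomal RNA, had -0.25 (rho -0.36). The remaining row of 4 compared, Gm26917, had 0.68 (rho 0.75).

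Transcripts of Gm15564 and Lars2 share an exact run of 52 bases in the GENCODE M21 annotation. Printed here are 30 of them, all in capitals because all are shared, from exon 2 of Gm15564-202 (GRCm38, chr16:35981766-35981795, minus strand). The same 30 bases also occur in AA474408.
Gm15564: AATTCACCAAGCGTTGGATTGTTCACCCAC
Only annotated transcripts were searched for these bases, not the rest of the genome. Reads from such a run can be given to any gene that holds it, so the levels of Gm15564 and Lars2 are uncertain. The part of these reads in the spread of Gm15564 was not tested. The coding partner of Gm15564, Parp9, an ADP-ribosyltransferase, was at 2.79, 2.63 and 1.86 CPM in fl/Y and at 1.86, 3.39, 3.46 and 2.21 CPM in cKO/Y, without such a spread. Kpna1, another coding gene opposite Gm15564, was at 67.5, 56.7 and 54.1 CPM in fl/Y and at 55.8, 71.8, 37.5 and 50.6 CPM in cKO/Y.

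**Figure D1:**
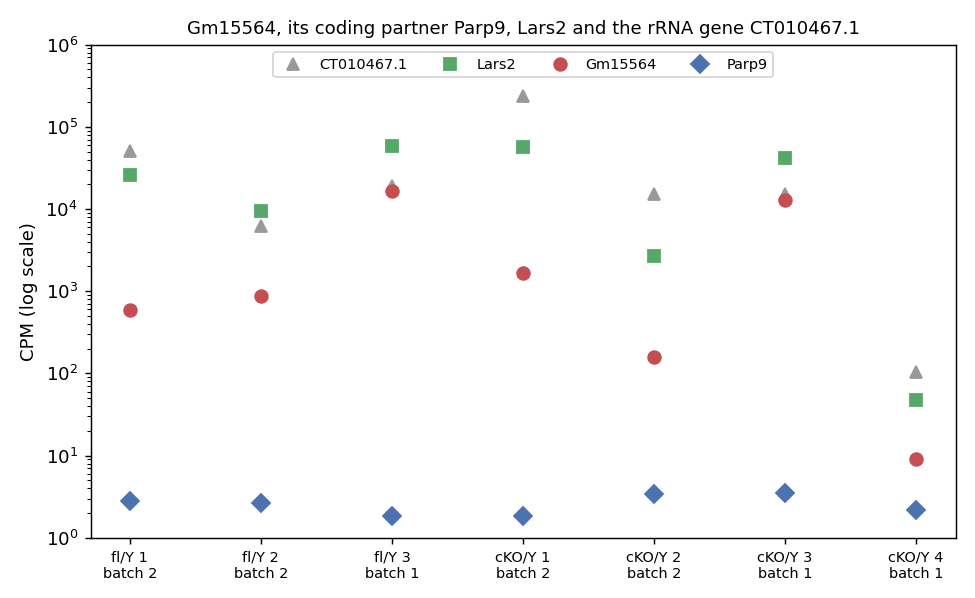
CPM (log axis) of Gm15564, its coding partner Parp9, Lars2 and the ribosomal RNA gene CT010467.1 in each of the 7 testis libraries, 1 point per library. Gm15564 ranges from 9.13 to 16460 CPM, with Lars2 and CT010467.1 also lowest in cKO/Y 4, while Parp9 stays between 1.86 and 3.46 CPM.

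The next members in level were far more even between libraries. Kcnq1ot1 (chr7:143212155-143296549, minus strand, within Kcnq1) was at 205, 226 and 209 CPM in fl/Y and at 251, 244, 152 and 185 CPM in cKO/Y. Both batch 2 cKO/Y libraries lie above all fl/Y libraries and both batch 1 cKO/Y libraries below them, and the group means were 213 ± 11.2 (SD, n = 3) and 208 ± 47.6 CPM (SD, n = 4). Kcnq1 itself, a potassium channel, had means of 1.06 ± 0.0528 (SD, n = 3) and 1.44 ± 1.12 CPM (SD, n = 4). The ratio of the fl/Y means in CPM was 201. GENCODE M21 gives Kcnq1ot1 93092 bases of exon, more than the 84395 bases of its deposited span, so that the exon length is not that of the gene as counted. With that length it was at 2.29 CPM per kb in fl/Y, 8.82-fold above Kcnq1, a value that is approximate for this reason.

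Wbscr25 (chr5:134987433-135001350) was at 173, 215 and 215 CPM in fl/Y and at 159, 185, 248 and 200 CPM in cKO/Y. It overlaps the 3′ part of Cldn3, a tight junction protein of epithelia, at 20.2 ± 6.27 CPM (SD, n = 3) in fl/Y. Gm11837 (chr4:14929908-14953030) was at 259, 210 and 129 CPM in fl/Y and at 167, 333, 89.1 and 147 CPM in cKO/Y, opposite Necab1, a neuronal calcium-binding protein, at 3.79 ± 1.10 CPM (SD, n = 3) in fl/Y. In both genotypes the libraries of batch 1 were the lowest for Gm11837, and its groups overlap.

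Tnp1, which encodes transition protein 1, a DNA-packaging protein that takes the place of histones in elongating spermatids, lies wholly within the span of 1700027A15Rik (chr1:72984844-73025507) on the other strand. 1700027A15Rik was at 191, 204 and 167 CPM in fl/Y and at 150, 187, 169 and 166 CPM in cKO/Y. Tnp1 had the highest level of all coding partners, at 1692, 1710 and 1193 CPM in fl/Y and 1249, 1264, 1546 and 1371 CPM in cKO/Y. The CPM ratio of antisense to coding RNA was 0.124 ± 0.0141 (SD, n = 3) in fl/Y and 0.125 ± 0.0163 (SD, n = 4) in cKO/Y. Their exons overlap by 40 bases, 2.87% of the exons of 1700027A15Rik.

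Gm14244, with no coding gene listed opposite it, was at 127, 109 and 129 CPM in fl/Y and 124, 104, 123 and 125 CPM in cKO/Y. Tex50 (chr1:161154558-161159314) was at 108, 116 and 76.6 CPM in fl/Y and at 77.2, 100, 74.9 and 70.7 CPM in cKO/Y, within Ankrd45, an ankyrin repeat gene, at 53.7 ± 5.07 CPM (SD, n = 3) in fl/Y. The deposited table lists Tex50 as antisense, while GENCODE M21 gives it, alone among the members, as protein coding. Only the batch 1 library keeps the fl/Y range of Tex50 in touch with the cKO/Y range. Gm42609 within Dclk1, a doublecortin-like kinase, had means of 112 ± 11.9 (SD, n = 3) and 115 ± 9.39 CPM (SD, n = 4). 1700006J14Rik within Hmga2, a chromatin protein of embryonic and stem cells, had means of 78.4 ± 8.32 and 82.4 ± 7.80 CPM (SD, n = 3 and 4), with Hmga2 at 1.95 ± 0.581 CPM (SD, n = 3) in fl/Y. The last of the highest 12 were 4930488L21Rik at the start of Gnao1, 4930589P08Rik within Camta1 and Gm16226 within Rasgef1b, with fl/Y means of 73.2, 71.0 and 69.0 CPM. Neighbours in the order of these 12 differ by less than the larger SD of their fl/Y libraries, with the exceptions of 1700027A15Rik and Gm14244 and of Tex50 and 1700006J14Rik.

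**Figure D2:**
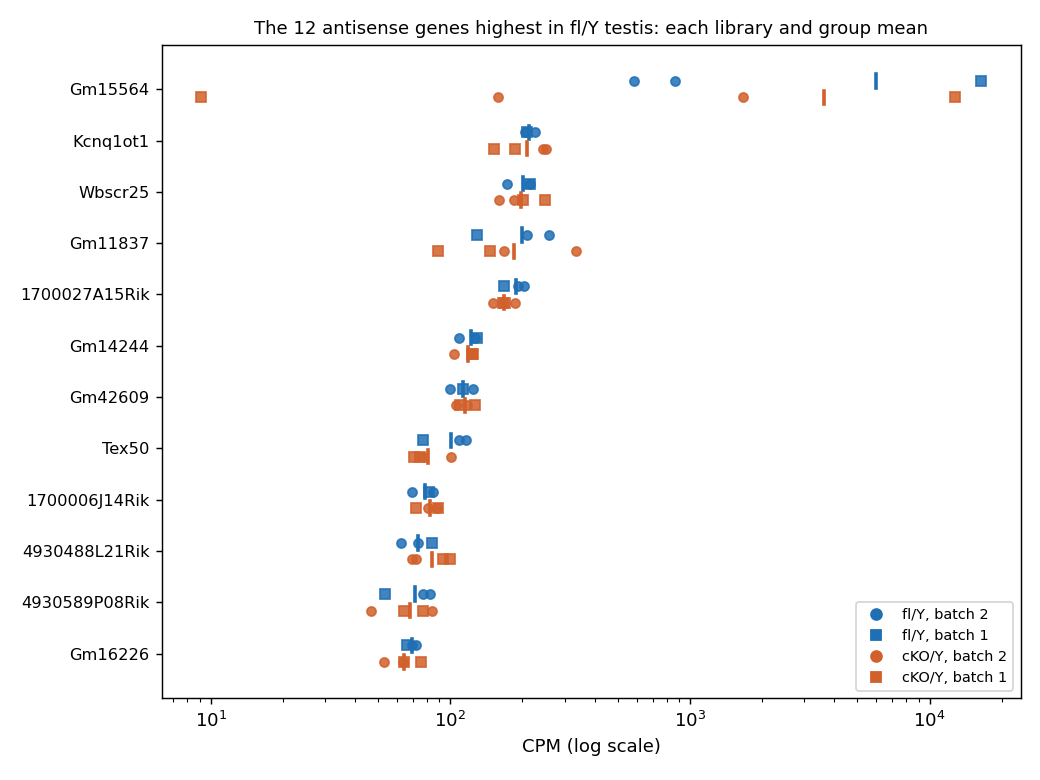
CPM (log axis) of the 12 antisense genes with the highest fl/Y mean, 1 point per library (circles batch 2, squares batch 1) and a bar at each group mean of 3 fl/Y and 4 cKO/Y libraries. Gm15564 spreads over 1802-fold, while both genotypes of the other 11 genes overlap.

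Of the 129 members, 117 overlap an opposite-strand coding gene of the table, and these 117 partners are all different genes. In 64 pairs (49.6% of members) the antisense gene lies within the coding gene. In 28 (21.7%) both genes overlap at their starts, head to head, in 20 (15.5%) at their ends, tail to tail, and in 5 (3.88%) the coding gene lies within the antisense gene. For 12 members (9.30%) no coding gene of the table overlaps. The head to head starts were a median of 737 bases apart (54 to 15084), with 17 pairs within 1000 bases. Annotated exons of both genes overlap in 79 pairs, by a median of 268 bases or 12.3% of the exons of the antisense gene (up to 74.5%), and do not overlap in 38. The strand setting of the libraries and of the counting is not given in the sources used here, so reads in these shared bases cannot be told apart, and a level of either gene in the 79 pairs can hold reads of the other.

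Antisense RNA was often as abundant as the coding RNA of the same locus. In CPM, the antisense gene was above its partner in all 7 libraries in 40 pairs, below it in all 7 in 56, and above it in some libraries in 21. The median ratio was 0.818 in fl/Y and 0.808 in cKO/Y. Antisense genes are shorter, so per kb of exon they were above the partner in all 7 libraries in 74 pairs, below in all 7 in 24 and mixed in 19, with a median ratio of 2.27 in fl/Y and 2.18 in cKO/Y. The threshold of 10 CPM applied to the antisense gene alone, and partners ranged from 0.768 to 1532 CPM in fl/Y (median 28.0), so these counts hold for members of this level only. The lengths add up all annotated exons of a gene, and which of them the testis RNA holds was not tested. Where the RNA of a gene is shorter, its level per kb is understated. In the 38 pairs without exon overlap, the antisense gene was above its partner per kb in all 7 libraries in 27 (71.1%), against 47 of 79 (59.5%) in pairs with it. Of the 64 members within their coding gene, 36 have exon overlap, and the exons of the rest lie in introns of the coding gene. Reads of coding RNA that still holds its introns cannot be told apart there, so this comparison does not separate antisense from coding reads. Across the 117 pairs the fl/Y levels of both genes had a Spearman rho of -0.12, with all points from the same 3 libraries.

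By arrangement, the median CPM ratio of antisense to coding RNA in fl/Y was 0.501 head to head, 0.695 within the coding gene and 1.86 tail to tail, and 0.491, 0.635 and 1.94 in cKO/Y. Per kb of exon the fl/Y medians were 1.19, 2.65 and 4.66 in the same order. Among head to head pairs, 4930513N10Rik starts 720 bases from Cnot1, the scaffold of the CCR4-NOT deadenylase, and was at 30.9, 31.7 and 39.8 CPM in fl/Y with Cnot1 at 1062, 886 and 683 CPM. Gldnos was at 29.0, 31.7 and 26.8 CPM in fl/Y and 29.2, 18.9, 22.4 and 24.5 CPM in cKO/Y, with Gldn, the gliomedin gene of nerve, at 1.25 ± 0.991 CPM (SD, n = 3) in fl/Y. Nespas, the antisense RNA of the imprinted Gnas cluster, was at 12.3, 8.68 and 16.2 CPM in fl/Y and 14.6, 12.4, 11.7 and 13.05 CPM in cKO/Y. The row for Gnas, a stimulatory G protein gene, had a fl/Y mean of 3.93 ± 1.56 CPM (SD, n = 3), with 31.4% of the Nespas exons in its exons.

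**Figure D3:**
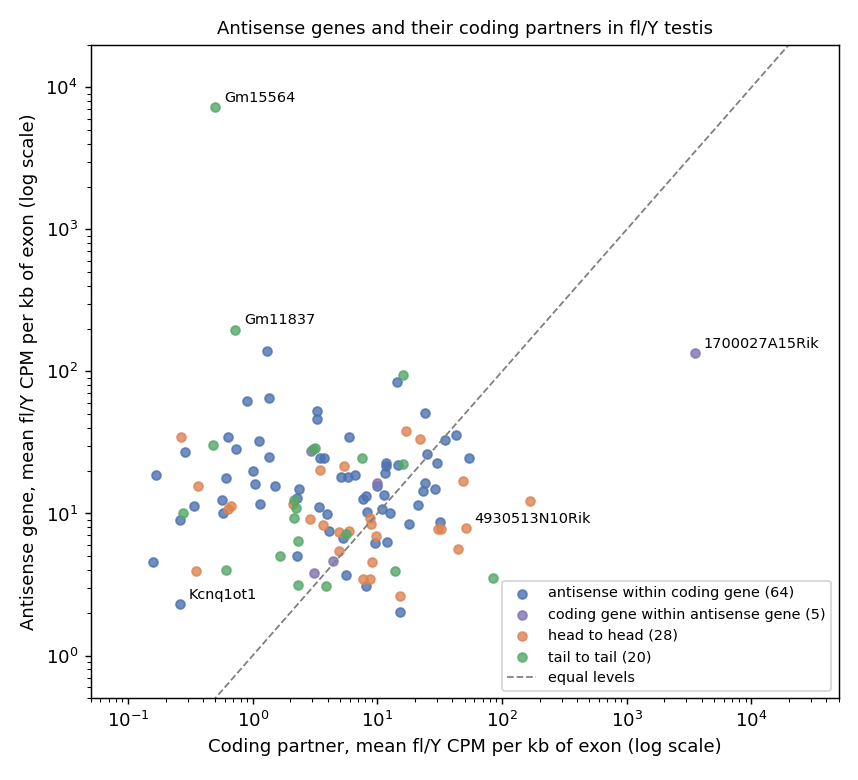
Mean fl/Y CPM per kb of annotated exon of 117 antisense genes (vertical, log axis) against the coding gene on the opposite strand (horizontal, log axis), 1 point per pair, coloured by arrangement, with a dashed line at equal levels. The tail to tail pairs lie highest over the line, with a median ratio of 4.66, and 1700027A15Rik lies far below it opposite Tnp1.

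Among members named os, Hoxd3os1 spans Hoxd8, a homeobox gene, without overlap of their exons. Hoxd3 and Hoxd4 also lie opposite it but are not among the genes listed. Hoxd3os1 was at 37.7, 50.5 and 52.5 CPM in fl/Y and 42.2, 41.1, 34.3 and 47.9 CPM in cKO/Y. Hoxd8 was at 27.1 ± 3.94 and 27.3 ± 7.96 CPM (SD, n = 3 and 4). Cep112os1 was at 26.01 ± 4.64 and 28.2 ± 10.5 CPM (SD, n = 3 and 4) within Cep112, a centrosomal protein gene at 195 ± 23.9 CPM (SD, n = 3) in fl/Y. Lyzl4os was at 21.4 ± 4.10 and 20.5 ± 2.17 CPM opposite Lyzl4, a lysozyme-like gene of sperm at 34.9 ± 3.12 and 36.3 ± 2.18 CPM (SD, n = 3 and 4).

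For the 3 back to back pairs whose sequences are printed above, the coding gene was within 1 SD of its antisense gene, higher, or much higher. Med9os was at 33.6, 32.7 and 30.8 CPM in fl/Y and at 27.3, 27.1, 26.5 and 27.3 CPM in cKO/Y, so that every cKO/Y library was below every fl/Y library. Med9 was at 21.7, 23.02 and 38.2 CPM in fl/Y and 24.5, 18.5, 47.2 and 44.1 CPM in cKO/Y, higher in batch 1 than in batch 2 in both genotypes, a split that Med9os does not show. Saxo1os was at 19.3, 15.1 and 11.7 CPM in fl/Y and 13.3, 14.2, 14.2 and 14.96 CPM in cKO/Y, with Saxo1 at 64.7 ± 7.82 and 54.8 ± 1.84 CPM (SD, n = 3 and 4). Arl4aos was at 21.4 ± 0.777 and 21.3 ± 2.62 CPM, with Arl4a at 388 ± 53.02 and 375 ± 86.3 CPM (SD, n = 3 and 4).

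No member differed between the genotypes at an adjusted p under 0.05 in limma, where Rlim was the only one of 19400 genes that did (0.00515%). By edgeR's quasi-likelihood test, edgeR's likelihood ratio test and DESeq2 on the recovered reads the count of members was also 0. At an unadjusted p under 0.05, 2 members (1.55%) were lower in cKO/Y and 0 higher in limma. Of all genes tested, 2.58% had such a p, 1.37% lower and 1.22% higher, and the other tools gave 2 members each. The median log2 difference, cKO/Y minus fl/Y, was -0.05 over the members and -0.01 over all genes, with 86 members below 0 and 43 above. Of all genes tested, 9942 were below 0 and 9458 above. Members were chosen on the fl/Y level, and when antisense genes were chosen on the mean of all 7 libraries instead, 134 genes had a median of -0.05 with 85 below 0. For the coding partners the median was 0.01, with 58 below 0 and 59 above, and 735 antisense genes under 10 CPM had a median of -0.02. The 95% interval of the difference lay within 2-fold for 126 of the 129 members, the exceptions being Gm15564, 4930458D05Rik and Gm11802. For Gm15564 the log2 difference was -2.50 (95% interval -6.05 to 1.05), with -0.47 within batch 2 and -5.56 within batch 1, and it ranged from -3.89 (without cKO/Y 3) to -0.44 (without cKO/Y 4). Without cKO/Y 2 the unadjusted counts were 9 lower and 2 higher, without cKO/Y 1 they were 5 and 0, without cKO/Y 3 4 and 0, without fl/Y 1 0 and 0, without fl/Y 2 1 and 1, and without fl/Y 3 3 and 1. The share of all genes in these same fits is not given here, and the 2.58% belongs to the fit of all 7 libraries. These counts therefore describe only how the number of members depends on single libraries. The median over the members was 0.00 without cKO/Y 1, -0.11 without cKO/Y 2 and -0.09 without fl/Y 3.

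**Figure D4:**
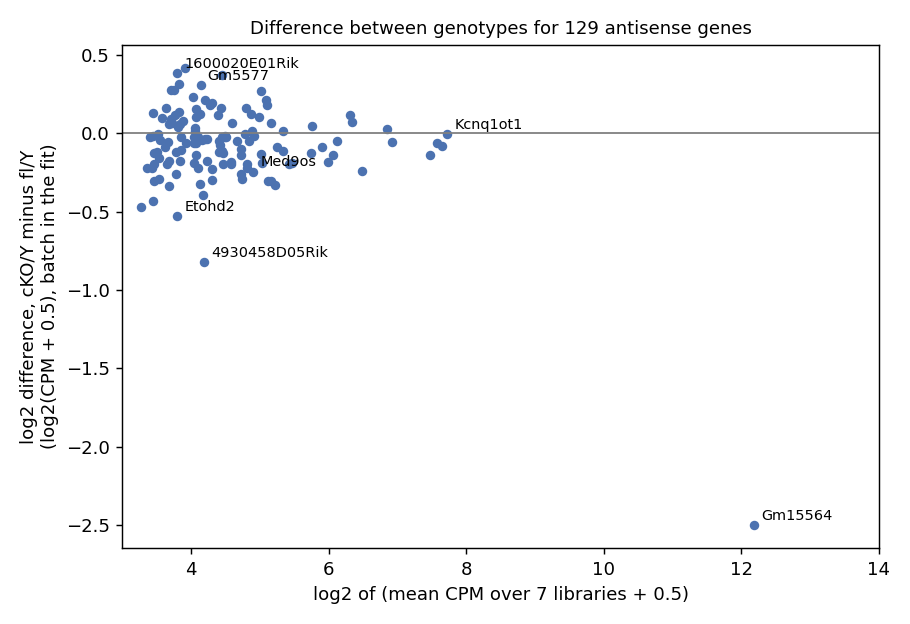
Log2 difference, cKO/Y minus fl/Y, on log2(CPM + 0.5) with the batch in the fit (vertical), against the log2 of the mean level over 7 libraries (horizontal), 1 point for each of 129 antisense genes. The median is -0.05, none passed an adjusted p of 0.05, and the point farthest from 0 is Gm15564 at -2.50, with a 95% interval from -6.05 to 1.05.

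Etohd2 (chr13:59769497-59775407, plus strand) had the smallest p among the members. It was at 16.7, 15.5 and 16.4 CPM in fl/Y and at 9.62, 11.6, 11.3 and 12.7 CPM in cKO/Y, every cKO/Y library below every fl/Y library. The log2 difference was -0.53 (95% interval -0.94 to -0.12, adjusted p = 0.9999 in limma), with -0.59 within batch 2 and -0.44 within batch 1. Its gene ends 225 kb below the stretch of chromosome 13 that the selection leaves out. It lies tail to tail with Zcchc6, a terminal uridylyltransferase that adds uridines to RNA ends, which was at 55.8, 58.0 and 57.6 CPM in fl/Y and 63.3, 59.0, 43.5 and 53.2 CPM in cKO/Y. On CPM + 0.5, the ratio of Etohd2 to Zcchc6 was 0.306, 0.275 and 0.292 in fl/Y and 0.159, 0.203, 0.269 and 0.247 in cKO/Y. These ratios did not overlap between the groups, but the share of all pairs without overlap is not given here, and Etohd2 was named for its small p. In the fit of the ratio the log2 difference was -0.49 (95% interval -1.13 to 0.15, adjusted p = 0.9952 in limma). Of the exons of Etohd2, 24.9% overlap those of Zcchc6.

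4930458D05Rik, which starts 1454 bases from the start of Gpat3, an enzyme of triglyceride synthesis, was at 20.1, 31.5 and 16.2 CPM in fl/Y and at 13.6, 5.58, 22.7 and 14.2 CPM in cKO/Y. The groups overlap, and the log2 difference of -0.82 (95% interval -1.56 to -0.09, adjusted p = 0.9999 in limma) was -1.47 within batch 2 and 0.14 within batch 1, so its sign differed between batches. Gpat3 was at 17.3 ± 1.82 and 14.8 ± 3.81 CPM (SD, n = 3 and 4).

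Etohd2 and Med9os were the only members with every cKO/Y library below every fl/Y library (1.55%, against 1.59% of all genes tested), and 1600020E01Rik and Gm5577 the only ones with every cKO/Y library above (1.55%, against 1.34%). 1600020E01Rik, whose start lies 74 bases from that of Pcbp1, a poly(C)-binding protein gene, was at 12.6, 9.49 and 11.9 CPM in fl/Y and at 15.8, 14.9, 16.1 and 12.8 CPM in cKO/Y. Its log2 difference was 0.39 (95% interval -0.04 to 0.81), with 0.47 within batch 2 and 0.26 within batch 1. Pcbp1 was at 33.3, 27.9 and 22.5 CPM in fl/Y and 39.4, 29.5, 33.7 and 27.1 CPM in cKO/Y. The ratio, on CPM + 0.5, was 0.427 ± 0.0993 and 0.473 ± 0.0450 (SD, n = 3 and 4). Gm5577, tail to tail with Rab7, a GTPase of late endosomes, was at 15.8, 11.9 and 17.2 CPM in fl/Y and at 18.6, 19.7, 18.6 and 17.6 CPM in cKO/Y, a log2 difference of 0.31 (95% interval -0.10 to 0.71). Batch 2 alone gave 0.47 and batch 1 alone 0.07, while leaving out fl/Y 2 gave 0.17 and leaving out fl/Y 3 gave 0.47. Of the 35-base words of Gm5577, 8.25% occur in transcripts of other genes, chiefly the pseudogene Rab7-ps1, so that its level is uncertain. Med9os had a log2 difference of -0.25 (95% interval -0.58 to 0.08), with -0.28 within batch 2 and -0.19 within batch 1.

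Other members with small p were Gm45441 opposite Grin2d, a glutamate receptor gene, with 15.99, 19.8 and 18.3 CPM in fl/Y and 26.4, 19.3, 23.9 and 25.9 CPM in cKO/Y, where cKO/Y 2 alone fell among the fl/Y values. Cdk19os within Cdk19, a kinase of the Mediator complex, was at 10.4, 7.88 and 18.04 CPM and at 21.4, 12.6, 15.1 and 16.6 CPM. Its log2 difference was 0.82 within batch 2 and -0.18 within batch 1, so its sign differed between batches. Gm42918 was at 26.8 ± 6.93 and 35.4 ± 10.2 CPM (SD, n = 3 and 4). Kcnmb4os1, within the potassium channel subunit gene Kcnmb4, was at 37.9, 38.4 and 37.7 CPM in fl/Y and 30.7, 25.9, 30.5 and 38.9 CPM in cKO/Y, with only cKO/Y 4 at the fl/Y level. 1700109G14Rik spans Arl11 and was at 41.7 ± 6.64 and 32.6 ± 5.25 CPM, and Gm26648 within Nub1 at 11.9 ± 2.72 and 9.22 ± 3.34 CPM (SD, n = 3 and 4). Each of these 6 had an adjusted p of 0.9999 in limma.

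**Figure D5:**
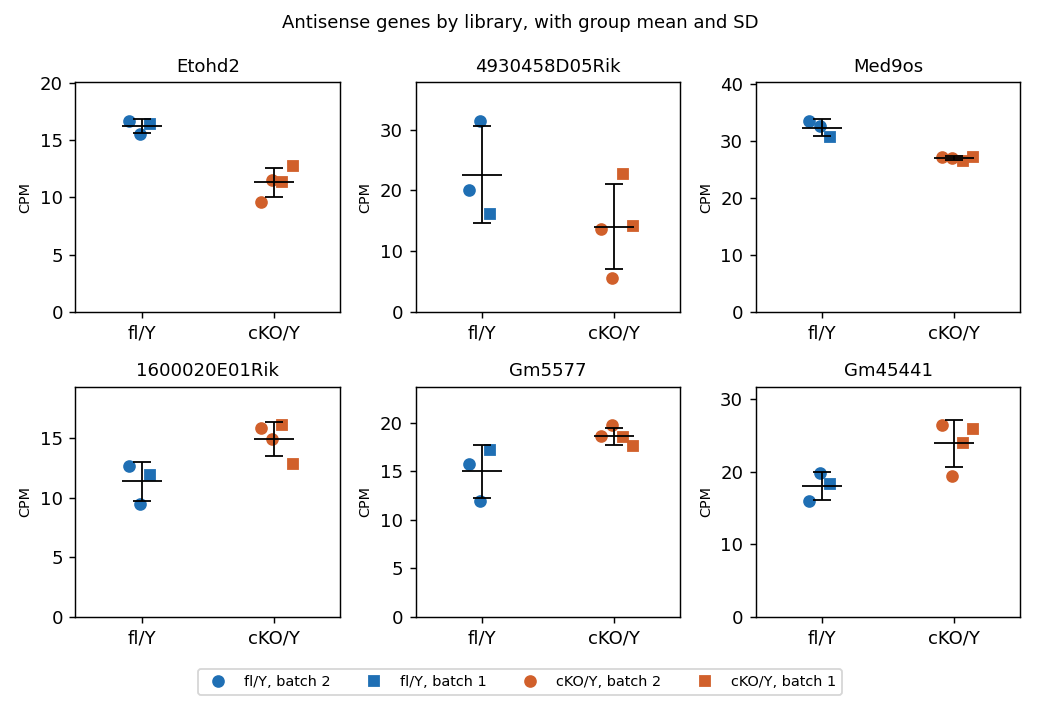
CPM of 6 antisense genes in each library (circles batch 2, squares batch 1), with the mean and SD of 3 fl/Y and 4 cKO/Y libraries, on axes from 0. The groups do not overlap for Etohd2 and Med9os, lower in cKO/Y, nor for 1600020E01Rik and Gm5577, higher in cKO/Y, while they overlap for 4930458D05Rik and Gm45441.

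The balance of antisense and coding RNA of a locus was compared by a fit of the log2 ratio over all 746 antisense-coding pairs of the table. None passed an adjusted p of 0.05 in limma (0%), and 33 pairs (4.42%) had an unadjusted p under 0.05, none of them among the 117 pairs of the members. The median log2 difference of the ratio was -0.03 for the members' pairs, with 62 below 0 and 55 above, and -0.01 over all pairs. With a library left out, the median of the members' pairs ranged from -0.11 (without cKO/Y 2) to 0.01 (without cKO/Y 1). The 95% interval lay within 2-fold for 80 of the 117. The largest of the named differences after Gm15564, for Gm10634 with Mthfsl, was -0.88 (95% interval -1.94 to 0.18), and 51.7% of the 35-base words of Gm10634 occur in transcripts of genes other than Mthfsl. Gm20163 opposite Exoc3l, an exocyst-related gene, had ratios on CPM + 0.5 of 2.09, 1.02 and 1.34 in fl/Y and 0.921, 0.692, 1.07 and 0.857 in cKO/Y. Its log2 difference was -0.72 (95% interval -1.48 to 0.04). Exoc3l was at 7.86 ± 1.68 and 11.2 ± 2.86 CPM (SD, n = 3 and 4).

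Ratios that were higher in cKO/Y with the smallest p were those of 1700108N11Rik to Ovol2, a zinc finger gene, of Cdk19os to Cdk19 and of 1700008J07Rik to Srcap, a chromatin remodeller. For 1700108N11Rik they were, on CPM + 0.5, 0.620, 0.616 and 0.744 in fl/Y and 1.35, 0.9748, 0.758 and 0.670 in cKO/Y. For 1700008J07Rik they were 2.57, 2.098 and 2.91 in fl/Y and 2.83, 3.49, 3.32 and 3.25 in cKO/Y. Both sets overlap, and the log2 differences were 0.51 (95% interval -0.20 to 1.22) and 0.33 (95% interval -0.37 to 1.04), with an adjusted p of 0.9952 in limma for each.

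Between batches, 9 members (6.98%) differed at an adjusted p under 0.05 in limma, against 1370 of 19400 genes (7.06%), and Gm11837 and Gm42918 were among them. Most members shared few or no words with annotated transcripts from elsewhere in the genome. For 85 of them no 35-base word occurs in a transcript of another gene, and for 121 under 5% of the words do. All genes that overlap the member on the genome, on either strand, were left out of this count. The 8 members at 5% or more were Gm10634, 1700095A21Rik (19.9%), Gm10069 (14.3%), Gm16279 (12.02%), Gm5577, Gm13267 (7.75%), 4930533I22Rik (5.92%) and 1700007P06Rik (5.07%), whose levels are uncertain for that reason. Gm15564 (2.94%) is among the 121, yet its level is uncertain as well, for the run it shares with Lars2. A share under 5% therefore does not make a level certain.

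Because sense and antisense RNA of a locus can pair, genes for proteins that bind, edit or process double-stranded RNA were taken as a list of 32, of which 30 were tested. At an adjusted p under 0.05 there were 0 of 30 in limma, and 0 also at an unadjusted p. Their median log2 difference was 0.02 (-0.01 over all genes), with 10 below 0 and 20 above. With the smallest p, Ago2, the slicing Argonaute, was at 36.4 ± 4.20 and 45.8 ± 13.9 CPM (SD, n = 3 and 4). Stau2, a Staufen RNA-binding protein, was at 10.2 ± 2.02 and 7.88 ± 4.20 CPM, and Eif2ak2, the kinase PKR that senses double-stranded RNA, at 19.3 ± 3.90 and 21.5 ± 3.66 CPM (SD, n = 3 and 4).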

How the data were processed

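Testis RNA of 3 fl/Y and of 4 cKO/Y (Sox2-Cre) males was analysed from 1 table with a column per library. Its signal values are CPM, deposited by the authors after scaling, in which every value was a whole multiple of the value of 1 read within 0.001 read. Its scaling was that of TMM factors, by comparison with edgeR. As tools, the labels list HISAT2 2.1.0, featureCounts and edgeR, with the build GRCm38. The methods of the study list TopHat, HTSeq and edgeR. How the strand was treated is not given in the sources used here. Whether the samples of a group are separate animals is given for the study only as biological replicates, so p-values measure the spread between these samples.

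The 19400 genes over 1 CPM in 3 or more libraries were fitted on log2(CPM + 0.5), a scale that understates changes of low genes, with limma 3.58.1 in R 4.3.3, a variance trend and the batch as covariate. P-values are two-sided and Benjamini-Hochberg adjusted with a threshold of 0.05. Log2 ratios of 746 antisense-coding pairs were fitted likewise. Ratios of a pair given per library, or as a mean with SD, are of CPM + 0.5. The other ratios of antisense to coding RNA are of group means in CPM or in CPM per kb. The partner is the opposite-strand coding gene with the longest overlap (7 members had more than 1). The fits were also run on simulated counts, with the same relative spread for every gene and no difference between batches. That run cannot show how the fits behave with the batches and uneven rows of these data. Exons came from GENCODE M21, which holds 893 of the 898 antisense genes, 881 with the same start and end, and words of 35 bases were counted in its transcripts with Python. Alternatives were other pseudocounts, filters, scaling and variance models, no batch term, a replicate block, each batch alone, each library left out, edgeR 4.0.16 and DESeq2 1.42.0 on the recovered reads, other thresholds for the members and other partners. The edgeR likelihood ratio test, the members without Gm15564 and pairs without exon overlap were added after the data were seen. The members and lists were chosen with earlier results of these data known. Members named are the 12 highest in fl/Y, the 5 higher and 5 lower with the smallest p, the 3 ratios in each direction, 6 named os, those next to the threshold and their partners. Lars2, CT010467.1, AA474408, Nespas, Gnas, 4930513N10Rik, Cnot1, the genes of back to back pairs, mt-Rnr2, Gm26917, Rab7-ps1 and those named for a motif, near starts, a wide interval or shared words were chosen after their values were seen.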

Additional observations from a re-analysis of the deposited data

Results flagged for a closer look

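Among 69 named genes, a cKO/Y library stood apart from the other 3 of its group by more than Dixon's 95% critical value for 4 samples in 5 genes, and chance flags about 1 in 20 groups. Gm15564 was at 12720 CPM in cKO/Y 3, with the next library at 1672 CPM. Gm14244 was at 104 CPM in cKO/Y 2 (next 123.1 CPM), Gnao1 at 15.75 CPM in cKO/Y 2 (next 28.97 CPM), Nub1 at 52.59 CPM in cKO/Y 3 (next 62.59 CPM) and Itpr3os at 3.787 CPM in cKO/Y 2 (next 13.34 CPM).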

How the results depend on the processing

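The count of members at an adjusted p under 0.05 was 0 under all alternatives run but 1. With batch 1 alone it was 1, Gm15564, in a fit with 1 residual degree of freedom where its own libraries cKO/Y 3 and 4 were at 12719 and 9.13 CPM. The pairs, the antisense genes under 10 CPM and the double-stranded RNA genes had a count of 0 throughout. Over all genes the count was 0 with no batch term, with batch 2 alone and with no trend in the prior variance, 28 with batch 1 alone, 10 by the edgeR likelihood ratio test, 1 by edgeR's quasi-likelihood test and by DESeq2, and 0 to 3 with a library left out. Rlim was at -1.48 with no batch term, -1.29 with batch 2 alone and -1.38 with no trend, past the threshold in none of these, and at -1.52 to -1.28 with a library left out. The replicate block gave 0 genes and -1.35 for Rlim, no longer past the threshold. The replicate numbers were not taken as pairs, since same-numbered libraries correlated in their deviations by 0.10, 0.07 and 0.39. Under the block 1 member was lower at an unadjusted p, and the share of all genes in that fit is not given here. The cause of these differences was not tested. With these depths and numbers of libraries the 95% interval lay within 2-fold for 126 of 129 members, so that smaller differences may be missed.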
